A study of Mus musculus with 6 samples.

Results

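Cathepsins are the main proteases of the lysosome, the acidic compartment in which cells break down proteins. The array carried 18 probes for 10 cathepsin genes, Ctsa, Ctsb, Ctsc, Ctsd, Ctsf, Ctsh, Ctsk, Ctsl, Ctss and Ctsz, of 56605 non-control probes in all. Every probe whose gene name in the scanner files is one of these was taken, and all 10 genes are among the 24932 genes that could be tested. RNA came from a dissection of brainstem and cerebellum at 16 weeks of age. It was measured in 3 samples from mice whose genotype label is MSA Transgenic and in 3 samples labelled wild type, with 1 single-colour Agilent mouse array per sample. The strain label, the same for all 6 samples, names C57BL/6, 129 and C3H. What MSA stands for, which transgene the mice carry, which promoter drives it and in which cells are not given in the labels. Nor do the labels say whether each sample is 1 animal, and p-values cover only the spread among the 6 samples, which may be technical.

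Most cathepsins are cysteine proteases, while cathepsin D is an aspartic protease and cathepsin A a serine carboxypeptidase. They are made as inactive proenzymes, carried to the lysosome largely by mannose 6-phosphate receptors, and activated there by removal of the propeptide. In the brain, cathepsins B, D and L are found in neurons and glia alike, whereas cathepsin S belongs mainly to microglia and other phagocytes. Cystatins hold the cysteine cathepsins in check.

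The arrays were alike in most respects. The 75th percentile of the signal over probes was 535 to 609 intensity units on 5 arrays and 406 on wild-type replicate 1, which was also the only array on its slide. That array correlated with the others at 0.979 to 0.984 across probes well above background. All 6 listed marker genes of cerebellum and all 6 of brainstem were well above background on every array of at least 1 genotype, as were 5 of 6 forebrain markers. The 6 cerebellar markers had a median log2 difference of -0.23 in transgenic against wild-type samples, and all 6 were lower. In 4 of them every transgenic sample lay below every wild-type sample, against 7.5% of all genes. Their summed signal was 400.0 to 425.8 times the 75th percentile in transgenic and 468.5 to 486.3 in wild-type samples. The 6 brainstem markers had a median of -0.24, or -0.14 without wild-type replicate 1. Of these, 2 were higher and 4 lower, and the groups overlapped in each. The medians of the 7 oligodendrocyte and 6 neuron markers were -0.21 and -0.16, with 6 and 5 of them lower. The oligodendrocyte sums were 233.2 to 238.3 in transgenic and 267.9 to 324.1 in wild-type samples. For neurons the sums were 351.7 to 360.3 in transgenic and 383.9 to 413.8 in wild-type samples. Forebrain markers had a median of 0.32, with a summed signal of 0.953 to 1.123 times the 75th percentile in transgenic and 0.808 to 0.919 in wild-type samples. Of the 5 tested, 2 were above background throughout 1 genotype only, and with normexp background correction the median was -0.02. Whether the dissection differed was not tested. In a bulk dissection fewer cells of a type and less RNA per cell cannot be told apart.

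The comparison is between transgenic and wild-type tissue at a single age. Of the 10 cathepsin genes, 9 had a higher mean in transgenic samples, led by Ctss at 1.62 times, Ctsc at 1.42 times and Ctsh at 1.38 times the wild-type level, and Ctsk alone had a slightly lower mean. Over all genes 49.9% had a higher mean. None of the 10 passed the test over all genes (limma, Benjamini-Hochberg adjusted p under 0.05), where 0.0441% of 24932 genes were called, 0.0361% as higher. At an unadjusted p under 0.05 there were 4 of the 10, all higher, namely Ctss, Ctsc, Ctsh and Ctsd, against 5.86% of all genes at that threshold and 3.15% as higher. For 8 of the 10 every transgenic sample lay above every wild-type sample, against 7.4% of all genes, and for none was every transgenic sample below, against 7.5%. That count of 8 depends on the scaling: it was 3, Ctss, Ctsc and Ctsh, when arrays were centred on their median in place of the 75th percentile, with 5.33% of all genes. Leaving out an array cannot lower this count, so the 8 found without wild-type replicate 1, with 13.3% of all genes, says nothing about that array. The median log2 difference of the 10 genes was 0.20, and that of all genes was -0.0005.

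**Figure D1:**
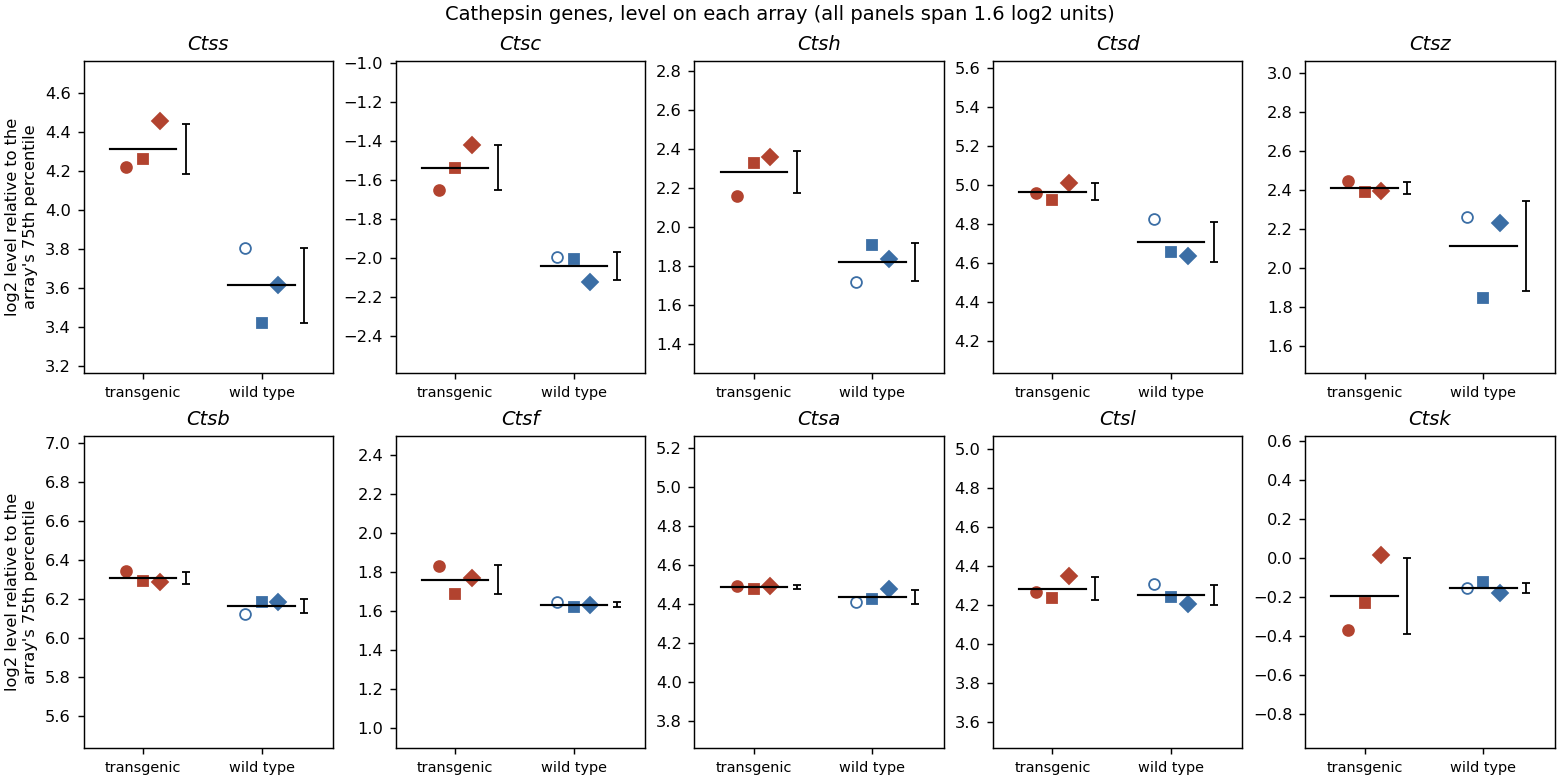
Log2 level of each cathepsin gene relative to the array's 75th percentile (y axis, every panel spanning the same range) in the 3 transgenic samples (left, red) and the 3 wild-type samples (right, blue). Circle, square and diamond are replicates 1, 2 and 3, the open circle is the wild-type array on a slide of its own, bars are means and whiskers are SD. The transgenic samples of Ctss, Ctsc and Ctsh stand clear of the wild-type samples, while those of Ctsl and Ctsk overlap with them.

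Cathepsin S is an endopeptidase that stays active at neutral pH and trims the invariant chain from class II molecules in antigen-presenting cells. Its probe lies on chromosome 3 (mm9, chr3:95360162-95360221), and the first 30 of its 60 bases are shown because it reads the gene with the largest difference of the family.
Ctss probe, first 30 bases: ttgcctgcaatatccagaggaaccaagtgt
The Ctss signal was 18.7, 19.2 and 22.0 times the array's 75th percentile in transgenic samples 1, 2 and 3. It was 14.0, 10.72 and 12.3 times that percentile in wild-type samples 1, 2 and 3. The groups did not overlap, and the lowest transgenic sample stood 0.41 log2 units above the highest wild-type sample. On the log2 scale the mean level was 4.31 ± 0.13 in transgenic and 3.62 ± 0.19 in wild-type samples (SD, n = 3 each). The log2 difference was 0.70 ± 0.13 (SE), with a 95% interval of 0.38 to 1.02, and the limma adjusted p over all genes was 0.281. By p it ranked 167th of 24932 genes. Among the 5 arrays of the shared slide the log2 difference was 0.79 (limma adjusted p = 0.177 with slide as a block).

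Cathepsin C, also called dipeptidyl peptidase I, removes dipeptides from the ends of proteins and in this way activates the serine proteases of immune cell granules. It was read by 3 probes on chromosome 7, 2 of which were bright enough to test. The probe at chr7:95458436-95458495 (mm9), annotated to the RefSeq transcript, stands for the gene.
Ctsc probe, first 30 bases: cgggtctttatcactcacagagtgatttag
Its signal was 0.318, 0.344 and 0.373 times the 75th percentile in transgenic samples and 0.250, 0.249 and 0.229 times in wild-type samples. All 3 transgenic samples lay above the wild-type range, by at least 0.35 log2 units. This amounts to a log2 difference of 0.51 ± 0.10 (SE, 95% interval 0.27 to 0.74), with a limma adjusted p of 0.286. This is a dim probe, and with normexp background correction, whose offset shrinks the differences of dim probes by itself, the log2 difference was 0.34.

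The second tested Ctsc probe did not show this difference. It lies at chr7:95439346-95439405 (mm9), is annotated to another transcript of the gene and read 0.0578, 0.0880 and 0.0787 times the 75th percentile in transgenic samples and 0.0522, 0.0835 and 0.0759 in wild-type samples. Replicate 1 was the lowest sample of both genotypes. The log2 difference was 0.09 ± 0.24 (SE, limma adjusted p over all probes = 0.932), and its 95% interval, -0.48 to 0.67, includes the value of the first probe. Averaging the tested pair gave a log2 difference of 0.30 for Ctsc. The third Ctsc probe was not well above background on any array.

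Cathepsin H is mainly an aminopeptidase, which cuts single residues from the start of a protein. Its 5 probes on chromosome 9 make it the most widely sampled member, and 4 of them could be tested. The probe with the highest signal, at chr9:89970828-89970887 (mm9), read 4.47, 5.02 and 5.14 times the 75th percentile in transgenic samples and 3.29, 3.76 and 3.56 in wild-type samples. The groups did not overlap, and the log2 difference was 0.46 ± 0.10 (SE, 95% interval 0.22 to 0.71, limma adjusted p over all genes = 0.381).

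A pair of Ctsh probes span an exon junction, since their genomic span exceeds their 60 bases, by 1092 bases for the first and by 2942 bases for the second. They are shown whole because they read spliced Ctsh messenger RNA, and their spans are chr9:89956440-89957591 and chr9:89966726-89969727 (mm9, plus strand).
Ctsh junction probe 1: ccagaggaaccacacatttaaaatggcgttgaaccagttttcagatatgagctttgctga
Ctsh junction probe 2: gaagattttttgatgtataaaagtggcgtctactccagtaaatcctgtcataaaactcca
The first read 0.245 times the 75th percentile in transgenic sample 1, 0.245 in sample 2 and 0.246 in sample 3, against 0.191, 0.183 and 0.174 in wild-type samples. These groups did not overlap either, and the log2 difference was 0.43 ± 0.08 (SE, limma adjusted p over all probes = 0.343). The second read 0.543, 0.579 and 0.631 in transgenic samples and 0.566, 0.425 and 0.394 in wild-type samples, where wild-type replicate 1 reached into the transgenic range. Its log2 difference was 0.36 ± 0.16 (SE, limma adjusted p over all probes = 0.843).

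One further Ctsh probe, at chr9:89950039-89950098 (mm9) and annotated to an Ensembl transcript only, exceeded background clearly in all 3 transgenic samples and in 2 of the 3 wild-type ones. Its log2 difference was 0.63 ± 0.37 (SE), with a 95% interval of -0.27 to 1.53. The fifth, also annotated to an Ensembl transcript only, was not well above background on any array. The 3 Ctsh probes above background on all arrays thus had log2 differences of 0.36 to 0.46, read from the same RNA of 6 samples. The probe at 0.63 was tested only because it cleared background in every transgenic sample, and its sign adds nothing to theirs.

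**Figure D2:**
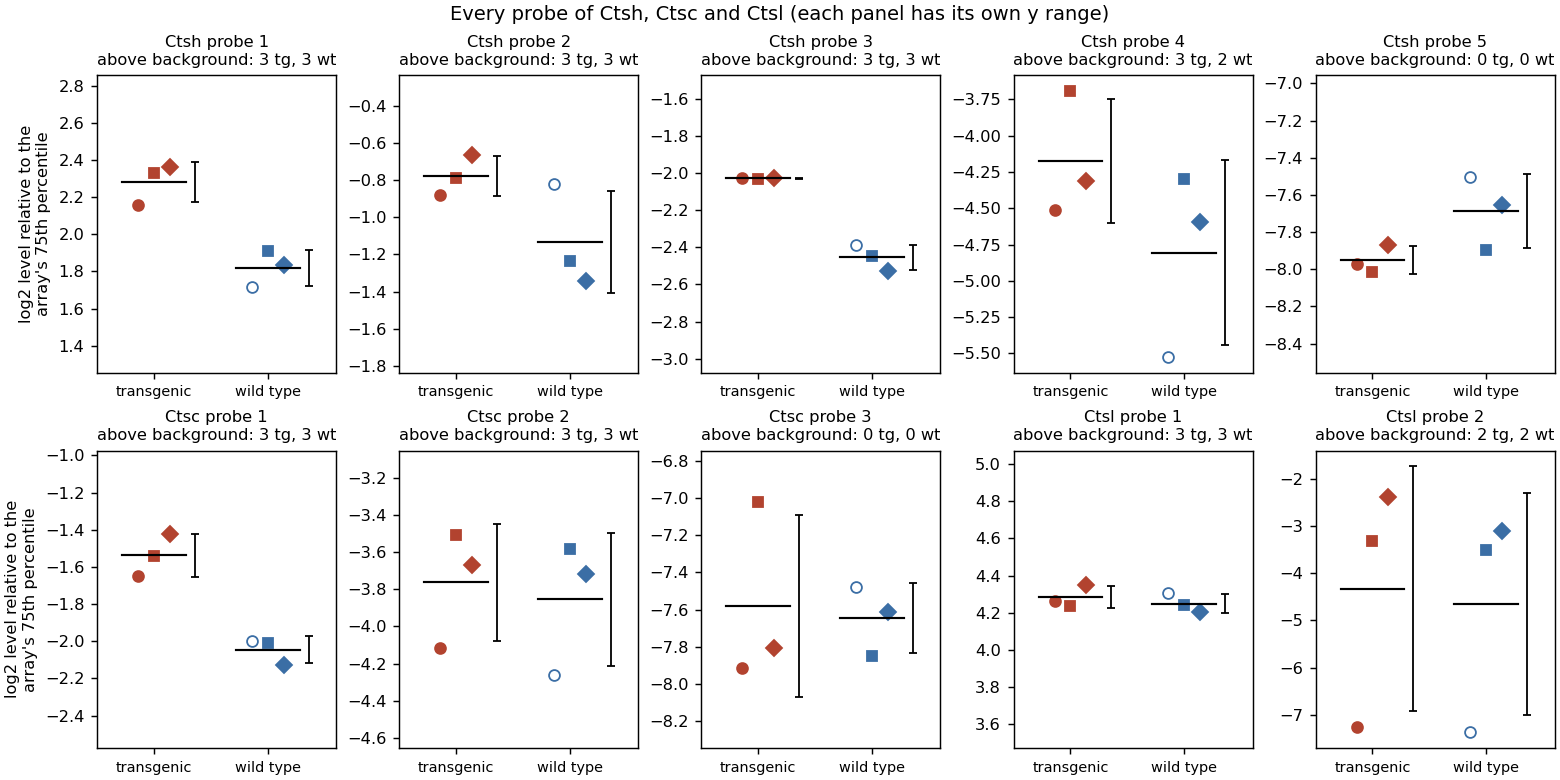
Every probe of Ctsh, Ctsc and Ctsl, with the log2 level relative to the array's 75th percentile (y axis, a range of its own in each panel) in transgenic samples (left, red) and wild-type samples (right, blue). Symbols are as in the plot of levels by gene, bars are means and whiskers SD, and each title gives the number of transgenic (tg) and wild-type (wt) arrays on which the probe was well above background. Ctsh probes 2 and 3 are junction probes 2 and 1, and the dim Ctsl probe 2 is low in replicate 1 of both genotypes.

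Cathepsin Z, a carboxypeptidase also known as cathepsin X, was read by 1 probe at chr2:174253228-174253287 (mm9). Its signal was 5.46, 5.25 and 5.28 times the 75th percentile in transgenic samples and 4.81, 3.60 and 4.69 in wild-type samples. The groups were apart, but wild-type replicate 2 lay well below the other two wild-type samples. For Ctsz the log2 difference was 0.30 ± 0.13 (SE, 95% interval -0.03 to 0.62, limma adjusted p = 0.817), and it was 0.17 without wild-type replicate 2.

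Cathepsin B, which acts both as an endopeptidase and as a carboxydipeptidase, read 81.4, 78.5 and 78.0 times the 75th percentile in transgenic samples and 69.7, 72.7 and 72.7 in wild-type samples. The groups were narrow and apart, and the log2 difference was 0.14 ± 0.07 (SE, 95% interval -0.04 to 0.33, limma adjusted p = 0.817). Cathepsin F, a cysteine protease with an unusually long propeptide, read 3.56, 3.22 and 3.42 in transgenic samples and 3.14, 3.08 and 3.10 in wild-type samples. Here too the groups were apart, by 0.04 log2 units, with a log2 difference of 0.13 ± 0.08 (SE, limma adjusted p = 0.817).

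Cathepsins L and K showed no separation. Cathepsin L, a broad endopeptidase, read 19.2, 18.8 and 20.4 times the 75th percentile in transgenic samples and 19.8, 18.9 and 18.4 in wild-type samples. Its main probe is printed in 10 spots per array, so its precision can be seen directly: the SD over the spots of 1 array was 0.045 to 0.090 log2 units. The log2 difference was 0.03 ± 0.08 (SE), with a 95% interval of -0.16 to 0.23, which leaves room for changes of up to 1.17-fold in the upward direction. With median scaling it was -0.011.

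Cathepsin K, best known for dissolving bone collagen in osteoclasts, read 0.775, 0.852 and 1.01 in transgenic samples and 0.900, 0.918 and 0.883 in wild-type samples. The transgenic samples lay on both sides of the narrow wild-type range. The log2 difference was -0.04 ± 0.12 (SE, 95% interval -0.33 to 0.25, limma adjusted p = 0.925), and it was 0.046 without transgenic replicate 1. The probes of Ctsk and Ctss lie 46.9 kb apart on chromosome 3 (mm9), so 2 nearby cathepsin genes had the lowest and the highest log2 difference of the family.

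The second Ctsl probe split the samples in another way. It lies on the same strand at chr13:64463434-64463493 (mm9), 1.79 kb further along in the direction of transcription than the main probe, and it is annotated to a cDNA clone of the gene.
Second Ctsl probe, first 30 bases: tcttaccttagtcttctctgaaaatgtccc
Its log2 level was -7.26, -3.32 and -2.40 in transgenic samples 1, 2 and 3 and -7.37, -3.51 and -3.11 in wild-type samples 1, 2 and 3. Replicate 1 of each genotype was not well above background, and the other 4 samples were. The pair of dim samples carry consecutive numbers in their titles, below the run of consecutive numbers of the other 4. Of all 56605 probes, 123 (0.217%) were well above background on those 4 arrays and on neither of the other two, and 37 (0.0654%) showed the reverse. The probe did not meet the rule for testing, and the labels do not say what the title numbers stand for.

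Outside the cysteine family, cathepsin D, the main aspartic protease of the lysosome, was read by 1 probe at chr7:149561962-149562021 (mm9, minus strand). Its signal was 31.0, 30.4 and 32.3 times the 75th percentile in transgenic samples and 28.4, 25.2 and 24.8 in wild-type samples. The groups were apart by 0.10 log2 units, with wild-type replicate 1 the highest of the wild-type samples. Transgenic and wild-type samples differed by 0.26 ± 0.09 log2 units (SE, 95% interval 0.04 to 0.48, limma adjusted p = 0.783), and within the shared slide it was 0.32.

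Cathepsin A both trims peptides and protects beta-galactosidase and neuraminidase in a shared complex. Its main probe, at chr2:164665023-164665082 (mm9), read 22.5, 22.2 and 22.5 times the 75th percentile in transgenic samples and 21.2, 21.5 and 22.2 in wild-type samples. The transgenic samples were nominally above, with a gap of 0.0012 log2 units, and the log2 difference was 0.05 ± 0.07 (SE, 95% interval -0.13 to 0.23, limma adjusted p = 0.855). A second, dim probe at chr2:164659791-164659850 had a log2 difference of 0.48 ± 0.16 (SE, limma adjusted p over all probes = 0.829) and overlapping groups. Averaging the pair gave 0.26.

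Probe by probe, 15 of the 18 cathepsin probes could be tested, 1 of them, the Ctsh probe at 0.63, through the transgenic samples alone. None was called over all 38463 probes tested (limma, 0.0286% called), and 6 had an unadjusted p under 0.05, all higher, against 5.59% of all probes and 2.99% as higher. In 9 of the 15 the transgenic samples all lay above the wild-type samples, against 6.68% of all probes.

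**Figure D3:**
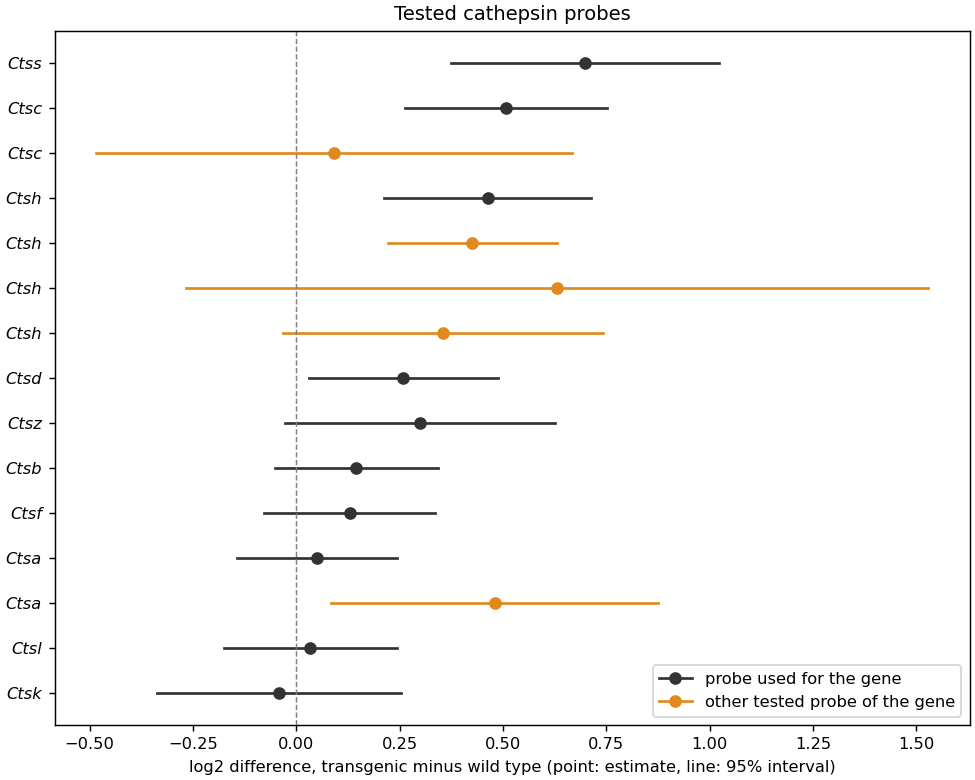
Log2 difference between transgenic and wild-type samples (x axis) for the 15 tested cathepsin probes, with 95% intervals, from limma over all probes. Black marks the probe used for each gene and orange the other tested probes of the gene. The intervals of Ctss, of the main Ctsc probe, of the main Ctsh probe and its first junction probe, of Ctsd and of the dim Ctsa probe lie above 0 before adjustment for the number of probes.

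The promoters of the family were searched because 9 of the 10 members had a higher mean. RefSeq's promoter table (GRCm38.p6) held 9 starts for 8 of the 10 genes, all but Ctsb and Ctsh, and the 250 bases before each start were searched on both strands for 4 motifs. These were CACGTG, the E-box core; TCACGTGA, an 8-letter motif that contains it and forms the core of the CLEAR element, through which TFEB and its relatives act on lysosomal genes; the interferon-stimulated response element, GAAA and GAAA with 2 bases of any kind between; and GAGGAAGT, an ETS-type site of the kind bound by PU.1, a transcription factor of microglia and macrophages. Only starts with a match are printed, those of Ctss, Ctsc, Ctsd and the second of Ctsa. Not printed are Ctsf and Ctsl, which held CACGTG only. The first start of Ctsa and those of Ctsk and Ctsz held none of the motifs and are not printed either. Capitals mark the matches, and the strand is that of the gene.
Ctss, chr3:95526536-95526785, plus strand: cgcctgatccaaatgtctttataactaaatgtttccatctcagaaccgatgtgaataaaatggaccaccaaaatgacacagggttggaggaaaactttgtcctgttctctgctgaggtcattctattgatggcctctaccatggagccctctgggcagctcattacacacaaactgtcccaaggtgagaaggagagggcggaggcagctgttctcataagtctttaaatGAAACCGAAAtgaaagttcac
Ctsc, chr7:88277835-88278084, plus strand: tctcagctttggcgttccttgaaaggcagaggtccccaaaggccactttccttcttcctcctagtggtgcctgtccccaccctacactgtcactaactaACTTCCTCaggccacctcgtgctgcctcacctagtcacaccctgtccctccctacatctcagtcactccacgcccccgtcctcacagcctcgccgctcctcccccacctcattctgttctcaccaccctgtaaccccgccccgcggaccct
Ctsd, chr7:142387828-142388077, minus strand: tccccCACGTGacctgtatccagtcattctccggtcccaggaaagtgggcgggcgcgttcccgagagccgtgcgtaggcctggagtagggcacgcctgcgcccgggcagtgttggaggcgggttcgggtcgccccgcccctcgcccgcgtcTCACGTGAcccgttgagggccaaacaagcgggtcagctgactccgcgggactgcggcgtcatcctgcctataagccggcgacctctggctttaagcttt
Ctsa, second start, chr2:164833523-164833772, plus strand: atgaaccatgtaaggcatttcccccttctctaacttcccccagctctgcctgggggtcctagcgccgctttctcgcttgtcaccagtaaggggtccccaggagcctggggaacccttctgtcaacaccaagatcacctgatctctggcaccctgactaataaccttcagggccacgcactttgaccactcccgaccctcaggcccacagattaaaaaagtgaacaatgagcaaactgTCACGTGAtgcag
Ctss held the interferon-type motif 21 to 12 bases before its start, and Ctsc the PU.1-type motif on the opposite strand, 151 to 144 bases before its start. Each of these motifs stood before 1 of the 9 starts, against 2.98% (interferon-type) and 2.44% (PU.1-type) of the 32851 promoters. A single match among 9 starts is too few to set apart from such shares. TCACGTGA stood before Ctsd and the second start of Ctsa, against 0.785% of all promoters. The shorter CACGTG was also present before Ctsf and Ctsl, for 4 of the 9 starts against 6.02% of all promoters. A match describes these letters only, and binding was not measured.

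The inhibitors of the family were measured on the same arrays. Of 16 listed, 8 could be tested and none was called, with 5 higher and 3 lower. Over the 7 that were above background on all arrays, which leaves out Cst7, the median log2 difference was 0.01. Cst7, which encodes cystatin F, an inhibitor in immune cells that acts on cathepsin C, differed most. Its log2 level was -2.44, -2.25 and -1.66 in transgenic samples and -5.49, -4.17 and -4.28 in wild-type samples. The groups lay far apart, and the log2 difference was 2.53 ± 0.40 (SE, limma adjusted p = 0.209), or 1.05 with normexp background correction. In wild-type samples the Cst7 probe cleared background in just 2 of 3, so the wild-type level behind this difference is close to background. Cst3, the abundant secreted cystatin C, had -0.14 ± 0.14, Cstb of the cytosol -0.10 ± 0.10 and the stefin gene Stfa2 -0.73 ± 0.41 (SE). Among the 5 arrays of the shared slide the value was 2.11 for Cst7 and -0.28 for Stfa2.

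The machinery around the cathepsins had medians close to 0. Of 15 genes that sort or mature lysosomal enzymes, 9 were higher and 6 lower, with a median log2 difference of 0.01 and none called. Gga1, a sorting adaptor, had 0.17 ± 0.09 and the sorting receptor gene Sort1 -0.16 ± 0.10. Of 15 tested acidification genes, 6 were higher and 9 lower, with a median of -0.02, and 9 were higher without wild-type replicate 1. Tcirg1, a proton pump subunit, had 0.33 ± 0.08 (SE, limma adjusted p = 0.463) and groups apart, while the pump's Atp6v1a had -0.14 ± 0.15.

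Of 24 other lysosomal hydrolases, 14 were higher and 10 lower, with a median log2 difference of 0.04 and none called. Without wild-type replicate 1, 18 were higher, while with normexp 12 were higher and 12 lower, with a median of 0.004. In 5 of the 24 every transgenic sample lay above every wild-type sample, against 7.4% of all genes, and in none below, against 7.5%. Arsb of this list, a sulfatase, had 0.26 ± 0.10 (SE, limma adjusted p = 0.817), or 0.09 with normexp. Of 14 lysosomal membrane genes, 8 were higher and 6 lower, with a median of 0.02. Slc11a1, a metal transporter of phagosomes, had 1.08 ± 0.10 and Cd68, a lysosomal glycoprotein of phagocytes, 1.097 ± 0.10 (SE, limma adjusted p = 0.0567 for Slc11a1 and 0.0591 for Cd68). With normexp the value was 0.57 for Slc11a1 and 0.98 for Cd68, and Cd68 was then called (limma adjusted p = 0.0163). The lower end was Slc17a5, the sialic acid transporter, at -0.36 ± 0.11. Of 6 regulators of lysosomal genes 4 were higher and 2 lower, among them Zkscan3 at -0.21 ± 0.10 and Tfeb at 0.40 ± 0.26, which was 0.10 among the 5 arrays of the shared slide.

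A pair of lists is tied to single cathepsins, and neither held a called gene. For class II antigen processing, where cathepsin S works, 8 of 10 tested genes were higher with a median log2 difference of 0.20. It was 0.18 over the 9 of them above background on all arrays, and 0.14 with normexp. Ifi30, a lysosomal thiol reductase, had 0.50 ± 0.09 (SE, limma adjusted p = 0.286) with groups apart, and Cd74, the invariant chain that cathepsin S trims, 0.22 ± 0.20 with overlapping groups. For the granule proteases that cathepsin C activates, 4 of 8 listed genes could be tested, with overlapping groups in each. Prtn3 was well above background on none of the wild-type arrays, so its value is a comparison with background. The median of the other 3 was 0.26, and with normexp the median of all 4 was -0.02. Of 14 cathepsin-related proteases outside the 10 members, most of them placental, 3 could be tested, and Ctsw, Ctso and Cts7 had 0.19 ± 0.10, -0.19 ± 0.17 and -0.08 ± 0.82.

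**Figure D4:**
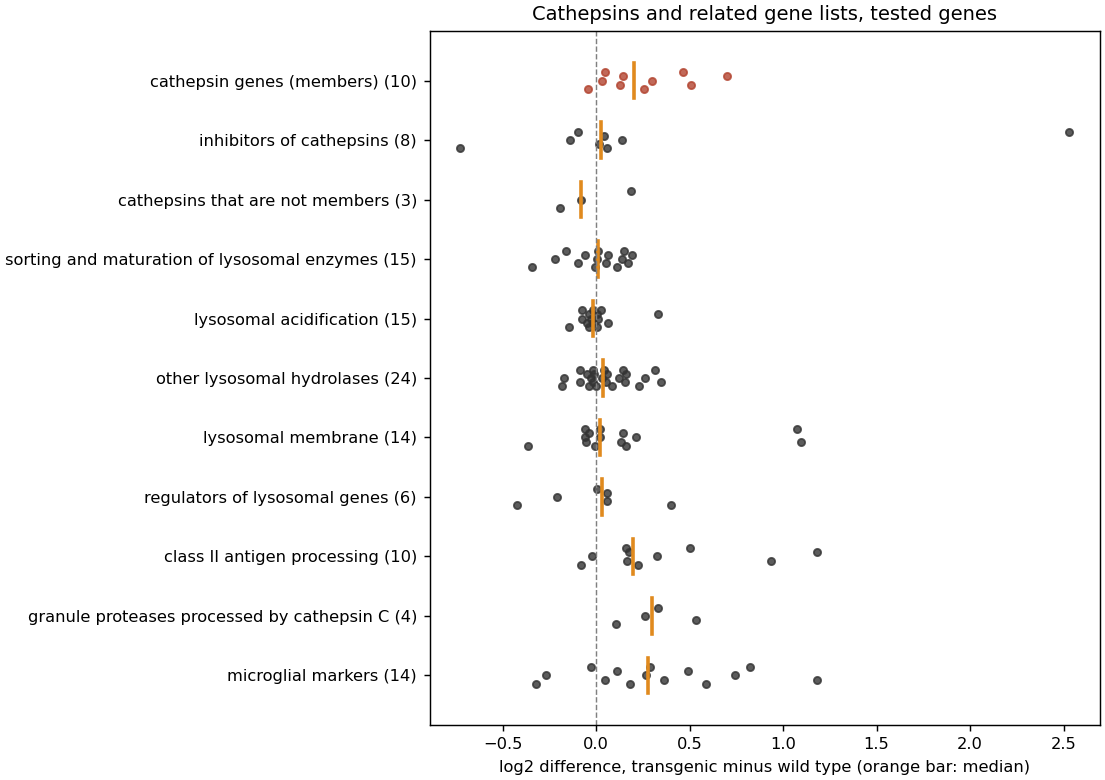
Log2 difference between transgenic and wild-type samples (x axis) of each tested gene, one dot per gene, for the 10 cathepsin genes (top, red), for each related list and for microglial markers, with the number of tested genes in brackets and the median as an orange bar. The medians of the sorting, acidification, hydrolase and membrane lists lie between -0.02 and 0.04, and that of the cathepsins at 0.20. Those of class II antigen processing, granule proteases and microglial markers lie at 0.20, 0.30 and 0.28.

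Cell type markers were read on the same arrays. All 14 microglial markers could be tested, 11 were higher and 3 lower, with a median log2 difference of 0.28, and none was at background. Without wild-type replicate 1 the median was 0.18, with 9 higher and 5 lower. Their summed signal was 250.3 to 284.5 times the 75th percentile in transgenic samples and 162.8, 304.0 and 311.2 in wild-type samples 1, 2 and 3. The sums overlapped through wild-type replicate 1 alone, and those of wild-type samples 2 and 3 lay above every transgenic sum. Most of each sum came from the brightest probes of the list, Siglech and Itgam. The log2 level of Siglech was 7.33, 7.42 and 7.21 in transgenic samples and 5.85, 7.49 and 7.53 in wild-type samples. The sum therefore says little about the other markers. The 3 with the smallest p, Trem2, C1qa and Csf1r, had 0.75 ± 0.08, 0.82 ± 0.13 and 0.49 ± 0.08 (SE), beside 0.70 for Ctss and 0.51 for Ctsc. Next by p came Aif1 at 0.59 ± 0.10 and Tmem119 at 0.29 ± 0.09, both with every transgenic sample above every wild-type sample. The remaining markers of the list, named here after their values were seen, went both ways. Fcrls had 1.18 ± 0.51, Siglech 0.36 ± 0.47, Cx3cr1 0.27 ± 0.13, Gpr34 0.18 ± 0.17 and Olfml3 0.11 ± 0.24 (SE), with overlapping groups in each. Itgam had -0.32 ± 0.12 with every transgenic sample below every wild-type sample, and Sall1 had -0.27 ± 0.14. P2ry12 had 0.05 ± 0.15 and P2ry13 -0.03 ± 0.19. All 7 markers of border macrophages were higher, with a median of 0.37 (0.22 with normexp, 6 higher) and a summed signal of 2.08 to 2.40 in transgenic and 1.69 to 1.96 in wild-type samples. Of 8 neutrophil and monocyte markers 7 could be tested, 5 of them higher, with a median of 0.65. This median was 0.19 with normexp and 0.49 without wild-type replicate 1. One of the 7 entered the test through the transgenic samples only. Over the 6 above background on all arrays the median was 0.52, with 4 higher. The summed signal of the list was 14.0 to 16.4 in transgenic and 13.2 to 16.3 in wild-type samples. Nearly all of it came from Ly6c2, which had a log2 difference of -0.01 ± 0.12 (SE), so this sum says little about the other markers. Among lymphocyte and mast cell markers, Cd3g, Cd8a and Cpa3 did not clear background in any sample. The 6 tested had a median of 0.15 with 3 higher and 3 lower, or -0.12 with normexp. Over the 5 of them above background on all arrays the median was also -0.12, with 2 higher. Astrocyte markers went both ways around a median of -0.04: Gfap had 0.59 ± 0.11 (SE, limma adjusted p = 0.277) with every transgenic sample above, and the glutamate transporter gene Slc1a2 -0.23 ± 0.12 with every transgenic sample below. Endothelial and pericyte markers had a median of -0.07. Whether cell numbers have a part in the cathepsin differences was not tested.

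The genes most like Ctss and Ctsc over the 6 arrays were sought by the root mean square difference of centred log2 levels, with predicted genes and clones without a reference name left out. For Ctss they were Gstm5, Atf3, Matn2, Ly86 and Naip2, at 0.082 to 0.099 log2 units, and for Ctsc Ddx58, Csf1r, Col16a1, Ifit1 and Parp14, at 0.053 to 0.068. Ctsh was the closest member to Ctsc (0.082, 16th of all genes) and Ctsc the closest to Ctss (0.15, 50th), while Ctsk was the farthest member from both. These distances describe 6 arrays that include the genotype difference itself.

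**Figure D5:**
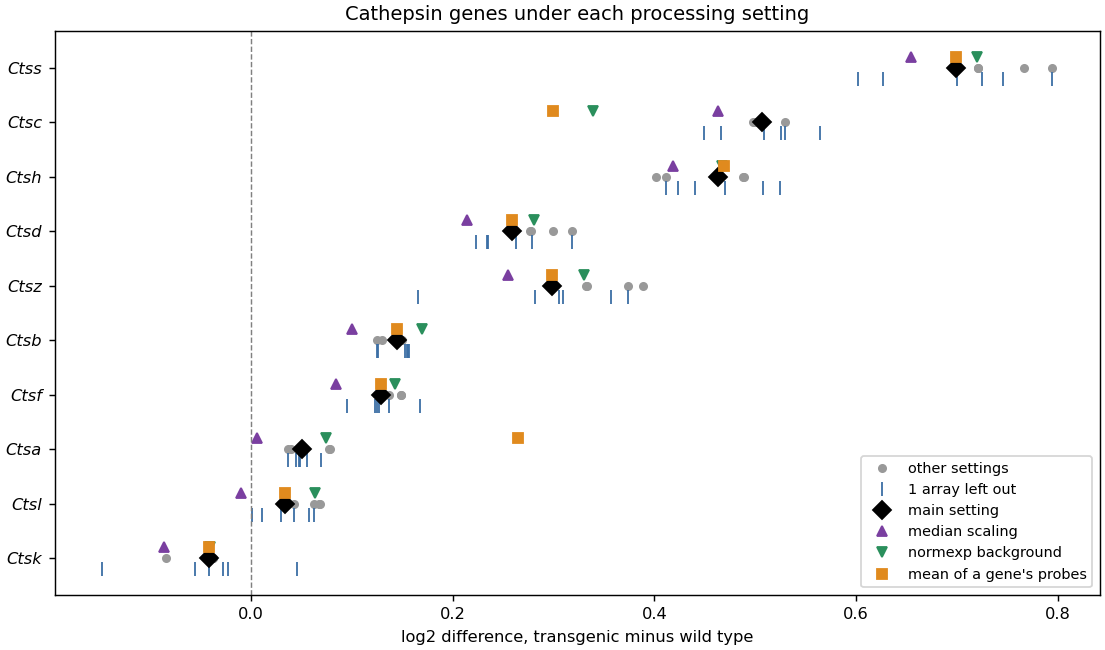
Log2 difference between transgenic and wild-type samples (x axis) of each cathepsin gene under the main setting (black diamond), with median scaling, with normexp background correction, with the mean of a gene's tested probes, under the other settings (grey) and with 1 array left out (blue ticks). Ctss stays between 0.60 and 0.79, while Ctsc and Ctsa move with the probes averaged and Ctsl and Ctsk lie on both sides of 0.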

How the data were processed

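Total RNA was labelled with Cy3 per the labels' protocols. Per the file headers, the authors read the arrays with Feature Extraction 10.7.1.1 (9.5.1.1 per the submitters' processing notes), with probes placed on mm9. The deposited spot values are intensity values, background-subtracted and not normalized between arrays, with flags per spot that are coded as other values in the deposited files. The authors also deposited a table of intensity values, of which at least 99.986% in each array equalled a linear-scale quantile normalization within 0.01 log2; its scale is linear, without centring, with a median of 59.9 in each column.

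Between 39 and 84 spots flagged as outliers on each array were dropped along with the controls, the spots of a probe were averaged as log2, and the log2 75th percentile over probes was subtracted. A probe entered the test where all 3 arrays of either genotype put it well above background. Tests used limma 3.58.1 (R 4.3.3), for 38463 probes and for 24932 genes (the brightest tested probe of each), with Benjamini-Hochberg adjustment over all of them. Of the 56605 probes, 32994 were named by accession, 10224 by symbol and 520 by synonym through RefSeq (GRCm38.p6). The number of arrays limits the precision.

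The cathepsins and the gene lists were chosen with earlier results of these data known. Genes named are the members, up to 4 per list (3 per marker list) with the smallest p, and the 5 nearest to each of the first 2 members. Likeness skipped predicted genes and clones. A list gene that this rule names is not reported here. Undetected lymphocyte and mast cell markers, further microglial markers and Ly6c2 are named as well, chosen after their values were seen. The motifs were chosen after the values were seen. List medians with normexp, without wild-type replicate 1 and over probes above background throughout were added after seeing the data. Alternatives covered background correction, scaling, filters, slide, title number, the variance model, probe choice and leaving out each sample.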

Additional observations from a re-analysis of the deposited data

How the results depend on the processing

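No cathepsin gene or probe was called under any of the alternatives run; the lowest limma adjusted p was 0.0512, for Ctss with array quality weights. The log2 difference of Ctss ranged from 0.60 to 0.79, that of Ctsh from 0.40 to 0.52 and that of Ctsd from 0.21 to 0.32, and that of Ctsc from 0.30 with the mean of its probes to 0.56. Ctsl turned to -0.011 with median scaling, and Ctsk ranged from -0.15 to 0.046 with 1 sample left out, positive without transgenic replicate 1. The number of cathepsin genes with groups apart, an alternative chosen after seeing the data, was 3 in place of 8 with median scaling; the cause was not tested. Over all genes, 11 were called, against 29 with normexp, 95 with array quality weights, 27 with an intensity trend, 24 with a gene's probes averaged, 23 with the stricter filter (clear of background in all 6 samples, which leaves fewer genes), 6 with no filter, where more were tested, 7 with slide as a block and 0 to 7 with 1 sample left out (0 without transgenic replicate 2). Of the related lists no gene was called in the main setting. There were 3 with array quality weights (Cd68, Cst7 and Slc11a1), 2 with probes averaged and 2 with the stricter filter (Cd68 and Slc11a1), 1 each with normexp and the intensity trend (Cd68) and 1 each with quantile normalization and the authors' value table (Slc11a1). The labels pair no samples across genotypes, and replicate numbers here only name samples; blocking on the leading digit in the sample titles, 11 genes were called, none of them a cathepsin. Signal over background limits the dim probes of Ctsa, Ctsc, Ctsh and Ctsl.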
